A study of Homo sapiens with 8 samples.

Results

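The genes described here are 34 genes of glucose uptake, glycolysis, lactate handling and the pentose phosphate pathway. They include ARRDC4, an arrestin-like protein that lowers glucose uptake. All were taken by gene name from the deposited count table of 58735 genes, and the list was drawn up with earlier results of these data known. All 34 were present and all 34 passed the filter on low counts that left 17413 genes for testing. Their levels come from total RNA sequenced from 8 cultures of SV-HUC1 cells, a long-established human urothelial line that carries SV40. In 4 cultures glucose oxidase was added to the medium at 20 mU per ml for 24 h, and 4 untreated cultures were the controls. Both groups were grown in the same medium, an equal mix of A-DMEM and F12 with fetal bovine serum and GlutaMAX, and carried replicate numbers 1 to 4. SV-HUC1 is a single line, so the values describe that line and not urothelium at large.

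Glucose oxidase turns glucose and oxygen into gluconolactone and hydrogen peroxide, so it uses up the sugar on which these genes act while it makes an oxidant. No group received peroxide alone, inactive enzyme or medium low in glucose, so the peroxide and the use of glucose cannot be told apart. Glycolysis splits glucose to pyruvate in the cytosol and yields ATP, and lactate dehydrogenase turns pyruvate to lactate so that glycolysis can go on. The pentose phosphate pathway branches off at glucose 6-phosphate, makes the NADPH with which cells reduce peroxides through glutathione and thioredoxin, and returns sugars to glycolysis through transketolase and transaldolase. Many glycolytic genes, LDHA and PGK1 among them, are known targets of the hypoxia factor HIF1, and ARRDC4 and its relative TXNIP are known targets of the glucose-sensing factor MondoA.

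The 250 bases upstream of the RefSeq start (GRCh38.p14) are shown for 5 genes on which the results turn. LDHA and PGK1 had the widest spread between libraries, TPI1 and H6PD had the calls that held in most fits, and ARRDC4 is the MondoA target of the list. Each line runs 5′ to 3′ on the coding strand, and capitals mark ACGTG on either strand, the core letters of a HIF1 site, and CACGTG, the E-box, whose reverse complement is the same and which therefore holds ACGTG on both strands.
LDHA: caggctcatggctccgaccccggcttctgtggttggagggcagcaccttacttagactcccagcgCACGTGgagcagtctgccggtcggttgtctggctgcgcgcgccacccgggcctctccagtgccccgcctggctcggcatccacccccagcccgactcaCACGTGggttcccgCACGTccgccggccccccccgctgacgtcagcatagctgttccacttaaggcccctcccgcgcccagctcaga
PGK1: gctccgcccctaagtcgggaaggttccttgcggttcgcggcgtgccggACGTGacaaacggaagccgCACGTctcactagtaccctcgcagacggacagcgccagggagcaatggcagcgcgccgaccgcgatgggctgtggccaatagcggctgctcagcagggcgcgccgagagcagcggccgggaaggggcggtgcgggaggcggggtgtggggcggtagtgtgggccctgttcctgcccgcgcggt
ARRDC4: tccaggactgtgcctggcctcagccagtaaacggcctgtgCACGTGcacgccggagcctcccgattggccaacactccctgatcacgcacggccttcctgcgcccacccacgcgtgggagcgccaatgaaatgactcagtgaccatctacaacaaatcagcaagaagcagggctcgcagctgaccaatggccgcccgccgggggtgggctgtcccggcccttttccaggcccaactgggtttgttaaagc
TPI1: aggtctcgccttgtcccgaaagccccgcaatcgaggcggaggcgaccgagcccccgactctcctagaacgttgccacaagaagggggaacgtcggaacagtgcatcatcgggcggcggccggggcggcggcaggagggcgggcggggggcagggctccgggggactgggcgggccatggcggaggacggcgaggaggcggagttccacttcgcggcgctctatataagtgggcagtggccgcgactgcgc
H6PD: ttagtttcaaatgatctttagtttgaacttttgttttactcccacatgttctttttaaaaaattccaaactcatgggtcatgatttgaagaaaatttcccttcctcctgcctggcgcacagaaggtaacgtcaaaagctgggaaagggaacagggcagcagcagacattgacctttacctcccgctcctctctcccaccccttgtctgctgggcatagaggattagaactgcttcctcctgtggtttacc
The windows lie at chr11:18394313-18394562 for LDHA, chrX:78103998-78104247 for PGK1, chr15:97960453-97960702 for ARRDC4, chr12:6867281-6867530 for TPI1 and chr1:9239597-9239846 for H6PD, all on the plus strand. The LDHA window held ACGTG 5 times when both strands were counted, 4 of these within 2 E-boxes. The PGK1 window held ACGTG 2 times and no E-box. The ARRDC4 window held 1 E-box, and the TPI1 and H6PD windows held neither motif. Nor did the window of TXNIP, the other MondoA target named above. The PGK1, TPI1 and H6PD windows lie inside the gene spans given below, which begin farther upstream. Most of the LDHA window, with its second E-box and its last ACGTG, also lies inside the span of LDHA, which begins at 18394388. The end of the ARRDC4 window reaches just past the start of the ARRDC4 span at 97960698. A window was available for 31 of the 34 genes, the others being SLC2A3, PFKFB2 and SLC16A1, and where a gene had several starts the farthest upstream one was taken. ACGTG was in 10 of these 31 windows (32.3%), against 6501 of 35116 windows of the same length (18.5%), and CACGTG in 4 (12.9%), against 2228 (6.35%). The 31 are 1 window for each gene, while the 35116 count every start of a gene, so these shares are not of like units. The motif counts are matches of letters in a window, with no measure of binding.

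Total counts ran from 21437267 to 27183692 in treated cultures and from 21653952 to 23543702 in controls, and did not differ beyond the spread (two-sided exact permutation p = 0.171, the smallest possible being 0.0286). In both groups the libraries of replicates 1 and 2 stood apart from those of replicates 3 and 4, a division seen in the expression values and not given in the labels. Deviations from the group mean correlated across genes at 0.503 to 0.678 between treated and control libraries of the same number. They correlated at 0.443 to 0.652 between libraries of different numbers inside the same set, and at -0.678 to -0.402 across the sets. Deviations from a group mean cancel within the group, so positive correlations inside a set bring negative ones across the sets. The last range is therefore not a separate observation. The first 2 ranges overlap, so the correlations separate the sets but do not show that a number marks 1 experiment. The block was chosen because the comparison was set by replicate number, with earlier results of these data known. Changes were tested in a fit that holds the replicate number as a block (edgeR's quasi-likelihood test, Benjamini-Hochberg adjusted p below 0.05 over all 17413 genes). The words "rose" and "fell" are used only of genes past that threshold. Beside it stand a fit with a term for the 2 sets and a fit with no such term. Markers of the cell type moved too. The summed level of 18 urothelial and epithelial markers was 4249 to 4780 CPM (counts scaled to TMM-normalised library size) in treated cultures and 5905 to 8477 CPM in controls. Of 15 tested, KRT5, KRT8, KRT13 and KRT19 fell (26.7%, against 6.97% of all genes tested). GATA3 and FOXA1 rose (13.3%, against 7.51% of all genes tested). With the term for the 2 sets 1 marker was called higher and 3 lower, and with no such term edgeR called 0 in either direction. UPK3A was at 0 in all treated libraries, UPK1A and KRT20 averaged below 0.1 CPM in both groups, and the summed fibroblast, endothelial and leukocyte lists reached at most 26.2, 5.88 and 6.39 CPM in treated cultures and 26.1, 4.98 and 9.85 CPM in controls. The part of this shift in the changes below was not tested.

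With the block, 4 of the 34 genes fell after glucose oxidase, namely TPI1, PGK1, PKM and LDHA, and 2 rose, H6PD and PFKM. The 4 that fell encode enzymes of the second stage of glycolysis, or bordering on it, and the step to lactate. H6PD is an enzyme of the pentose phosphate pathway in the endoplasmic reticulum, and PFKM is the muscle form of phosphofructokinase. The 4 were 11.8% of the genes, where 6.97% of all genes tested fell, and the 2 were 5.88%, where 7.51% of all genes rose, so the share that rose was not above that of genes at large. The median log2 change was -0.09 over the 34 genes and -0.01 over all genes tested, whose interquartile range ran from -0.26 to 0.24. Among the 34, 28 passed in neither direction. These are levels in whole cultures, in which fewer cells that express a gene and less RNA per cell cannot be told apart.

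These calls rest on how the replicates are treated. Without the block, edgeR called 0 of 17413 genes (0.0%), and 1284 (7.37%) had an unadjusted p below 0.05, among them 2 of the 34, PFKM (unadjusted p = 0.0423) and H6PD (unadjusted p = 0.0491). The smallest adjusted p among the 34 was then 0.664, and unblocked DESeq2 put 38 genes (0.218%) past the threshold upward and 50 (0.287%) downward, none of them among the 34. With the term for the 2 sets, 3.72% of all genes rose and 3.07% fell, and TPI1 (adjusted p = 0.014) and H6PD (adjusted p = 0.015) passed while the other 4 did not. With the block kept, the calls among the 34 were 2 higher (H6PD and ARRDC4, without PFKM) and 6 lower in DESeq2. DESeq2 gave an adjusted p for 15049 genes, ALDOC not among them, and called 8.03% of these higher and 9.51% lower. In edgeR the calls among the 34 were 3 and 3 under total-count scaling (9.62% and 3.07% of all genes). They were 1 and 5 with DESeq2 size factors (7.12% and 7.63%) and 1 and 5 with a gene-length correction (5.86% and 6.74%). With no filter on low counts they were 1 and 4 (3.31% and 2.45% of 39774 genes).

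**Figure D1:**
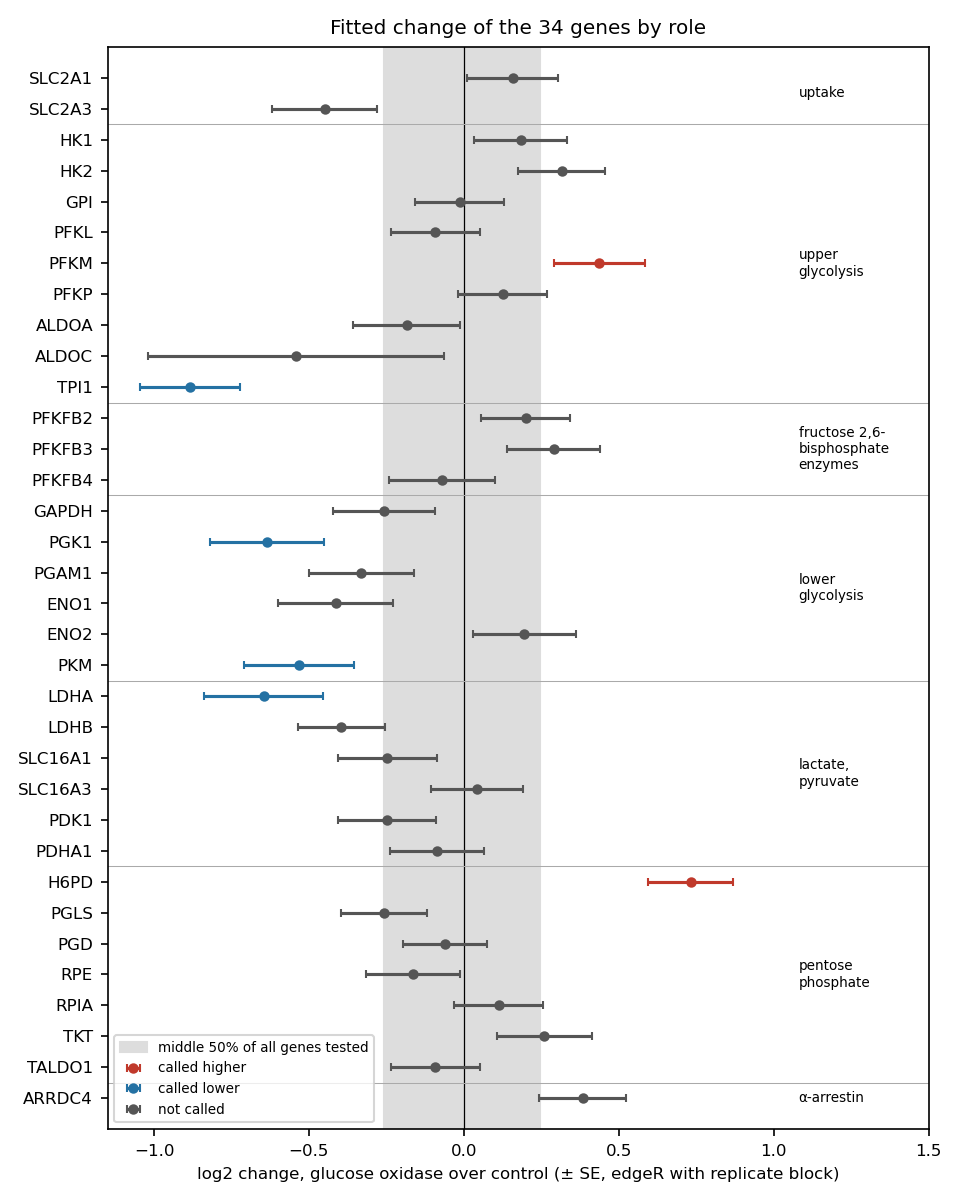
Log2 change of each of the 34 genes, treated over control cultures, from the edgeR fit with the replicate block (points, with bars of 1 SE), grouped by role, with the interquartile range of all genes tested in grey. TPI1 at -0.88 and H6PD at 0.73 lie farthest from 0, and 5 of the 6 lower glycolysis genes lie below 0.

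Per unit of length, the 7 most abundant of these transcripts by their mean in controls encode enzymes of the stretch from triose phosphate to lactate. In FPKM, ENO1 averaged 425 ± 165 in treated and 604 ± 328 in control cultures (SD, n = 4 each), followed in controls by LDHA, TPI1, PGAM1, GAPDH, PKM and PGK1, the last at 96.1 ± 53.3 in treated and 178 ± 142 in control cultures. In controls the SDs of neighbours in this order overlapped, so the order of these 7 is not settled by 4 libraries. The lead over other genes did not hold in every library: in control 1 PGK1 was at 57.8 FPKM and SLC16A1 at 64.7 FPKM. The lactate carrier SLC16A1 came next, at 70.9 ± 33.3 FPKM in treated and 80.6 ± 29.3 FPKM in control cultures. At the other end stood the muscle phosphofructokinase PFKM, at 2.63 ± 0.38 FPKM in treated and 1.95 ± 0.35 FPKM in control cultures, and ALDOC, at 0.13 ± 0.04 FPKM in treated and 0.20 ± 0.11 FPKM in control cultures.

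Of the glucose carriers, neither SLC2A1 nor SLC2A3 passed the test. SLC2A1 (GLUT1), the basal glucose carrier of most cells, was at 215, 219, 189 and 208 CPM in treated cultures 1 to 4, against 168, 219, 165 and 197 CPM in controls 1 to 4. Its groups overlapped, although treated was the higher in each pair, by very little in pair 2 (log2 change 0.16, SE 0.15, adjusted p = 0.52). SLC2A3 (GLUT3), a high-affinity carrier, was at 8.66, 11.2, 12.0 and 8.99 CPM in treated cultures and 11.4, 10.1, 20.1 and 15.7 CPM in controls. The treated values of SLC2A3 were below their controls in pairs 1, 3 and 4 (log2 change -0.45, SE 0.17, adjusted p = 0.0752), and it passed without replicate 2 (adjusted p = 0.026) and with the gene-length correction (adjusted p = 0.0436). SLC2A1 made up 96.3 ± 0.73% of the summed FPKM of these 2 carriers in treated and 94.3 ± 2.16% in control cultures (SD, n = 4 each).

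In the first stage of glycolysis, TPI1 fell, PFKM rose, and 7 of 9 genes passed in neither direction. TPI1 (ENSG00000111669, chromosome 12, 6867119 to 6870948, plus strand, GRCh38), which interconverts the 2 triose phosphates, was at 296, 206, 545 and 547 CPM in treated cultures, against 563, 368, 1193 and 854 CPM in controls. Each treated library lay below its control, and the groups overlapped, since treated 3 and 4 lay above control 2. The change was -0.88 on the log2 scale (SE 0.16, adjusted p = 0.000797), or 1.85-fold lower, and it was -0.89 within replicates 1 and 2 and -0.91 within replicates 3 and 4. Leaving out any 1 replicate number kept the adjusted p of TPI1 between 0.00316 and 0.00784.

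PFKM (ENSG00000152556, chromosome 12, 48105139 to 48146404, plus strand), the muscle form of the enzyme that commits fructose 6-phosphate to glycolysis, was at 15.5, 21.2, 21.8 and 19.6 CPM in treated cultures, against 11.7, 13.9, 14.7 and 17.5 CPM in controls. Treated was higher in each of the 4 pairs, and treated 1 lay below control 4, so the groups overlapped. The log2 change was 0.44 (SE 0.15, adjusted p = 0.0445), or 1.35-fold. This call was lost without replicate 1, 2, 3 or 4 (adjusted p = 0.0879, 0.156, 0.19 and 0.0514) and in DESeq2 with the block (adjusted p = 0.0545), and among the settings tried it held only under total-count scaling (adjusted p = 0.0283). Of the other phosphofructokinases, PFKP, the platelet form, was at 156, 174, 155 and 164 CPM in treated cultures and 126, 164, 139.8 and 168 CPM in controls (log2 change 0.13, SE 0.14, adjusted p = 0.615). PFKL, the liver form, averaged 168 ± 20.8 CPM in treated and 179 ± 24.6 CPM in control cultures (SD, n = 4 each, edgeR adjusted p = 0.726) and was the lower in every pair, by 0.18 or less on the log2 scale.

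HK2, the inducible hexokinase that traps glucose as glucose 6-phosphate, was at 49.9, 59.5, 41.3 and 38.6 CPM in treated cultures, against 32.5, 46.7, 33.6 and 38.7 CPM in controls. The treated values were higher in pairs 1 to 3 and level in pair 4 (log2 change 0.32, SE 0.14, adjusted p = 0.132). HK1, the housekeeping hexokinase, averaged 57.7 ± 9.96 CPM in treated and 50.6 ± 6.68 CPM in control cultures (SD, n = 4 each, edgeR adjusted p = 0.451). GPI, which turns glucose 6-phosphate into fructose 6-phosphate, averaged 139 ± 25.9 CPM in treated and 139.8 ± 24.5 CPM in control cultures (SD, n = 4 each), with a log2 change of -0.01 (SE 0.14, adjusted p = 0.963). The aldolases ALDOA and ALDOC had log2 changes of -0.19 (SE 0.17, adjusted p = 0.518) and -0.54 (SE 0.48, adjusted p = 0.493). ALDOA shares 42.3% of its exon bases on the same strand with the annotated gene AC093512.2, so its low count, 163 to 234 per library, may not hold all of its reads.

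The PFKFB enzymes make and break fructose 2,6-bisphosphate, the activator of phosphofructokinase, and none of the 3 passed. PFKFB3, the form that mostly makes it, was at 22.0, 26.8, 16.2 and 17.5 CPM in treated cultures, against 14.8, 18.2, 15.5 and 18.1 CPM in controls. It was higher in pairs 1 and 2 (log2 change 0.56 within them, SE 0.20) and level in pairs 3 and 4 (0.00, SE 0.20), and this difference between the sets did not pass its test (adjusted p = 0.641). PFKFB4 was at 7.11, 8.68, 10.5 and 11.2 CPM in treated cultures, against 7.87, 6.53, 12.9 and 13.2 CPM in controls (log2 change -0.07, SE 0.17, adjusted p = 0.831). PFKFB2 had a log2 change of 0.20 (SE 0.14, adjusted p = 0.391).

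In the second stage of glycolysis, PGK1 and PKM fell, and GAPDH, PGAM1, ENO1 and ENO2 did not pass. The median log2 change of the 6 genes was -0.37, with 5 of them below 0, against a median of -0.01 over all genes tested, of which 8830 of 17413 were below 0. The median of the 6 was -0.14 within replicates 1 and 2 and -0.54 within replicates 3 and 4, and -0.26 under total-count scaling, where that of all genes was 0.10. PGK1 (ENSG00000102144, chromosome X, 77910739 to 78129296, plus strand), phosphoglycerate kinase, which makes the first ATP of this stage, was at 307, 259, 781 and 794 CPM in treated cultures, against 327, 338, 1828 and 1416 CPM in controls. Treated lay below control in each pair, by little in pair 1 and by much more in pairs 3 and 4, and the treated values of replicates 3 and 4 were above the controls of replicates 1 and 2. The log2 change was -0.63 (SE 0.18, adjusted p = 0.0204), with -0.23 (SE 0.23) within replicates 1 and 2 and -1.04 (SE 0.23) within replicates 3 and 4. Without replicate 3 the adjusted p of PGK1 was 0.157, and without replicate 4 it was 0.131.

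PKM (ENSG00000067225, chromosome 15, 72199029 to 72231822, minus strand), the pyruvate kinase gene that closes glycolysis, was at 993, 933, 1250.0 and 1410.3 CPM in treated cultures, against 1810.2, 1516, 1563 and 1667 CPM in controls. It was the only one of the 34 with all treated libraries on 1 side of all controls, here below them, as were 2.6% of all genes tested, and none of the 34 had all treated libraries above, where 2.42% of all genes did. The log2 change of PKM was -0.53 (SE 0.18, adjusted p = 0.0428), or 1.45-fold lower, with -0.79 within replicates 1 and 2 and -0.28 within replicates 3 and 4. Without replicates 1, 2 and 4 in turn the adjusted p was 0.213, 0.177 and 0.0734, and under total-count scaling it was 0.0853. Gene counts do not separate the PKM1 and PKM2 splice forms.

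GAPDH, which oxidises glyceraldehyde 3-phosphate, averaged 497 ± 144 CPM in treated and 626 ± 276 CPM in control cultures (SD, n = 4 each), with a log2 change of -0.26 (SE 0.16, adjusted p = 0.321). PGAM1, phosphoglycerate mutase, averaged 451 ± 144 CPM in treated and 607 ± 308 CPM in control cultures (log2 change -0.33, SE 0.17, adjusted p = 0.195). ENO1, the main enolase, ran from 1353 to 3137 CPM in treated and from 1616 to 4924 CPM in control cultures and was lower in each pair (log2 change -0.41, SE 0.19, adjusted p = 0.136). DESeq2 with the block put ENO1 past the threshold (adjusted p = 0.0221). ENO2, the neuronal enolase, was at 12.8 ± 2.53 CPM in treated and 11.3 ± 2.87 CPM in control cultures (SD, n = 4 each), with a log2 change of 0.19 (SE 0.17, adjusted p = 0.477).

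At the step from pyruvate to lactate, LDHA fell and the other 5 genes did not pass. LDHA (ENSG00000134333, chromosome 11, 18394388 to 18408425, plus strand), the lactate dehydrogenase subunit that favours lactate formation, was at 612, 615, 1956 and 1982 CPM in treated cultures, against 752, 706, 4438 and 3713 CPM in controls. As with PGK1, treated was lower in every pair and the gap was wide in pairs 3 and 4 and narrow in pairs 1 and 2. The log2 change was -0.65 (SE 0.19, adjusted p = 0.0238), with -0.25 (SE 0.24) within replicates 1 and 2 and -1.05 (SE 0.25) within replicates 3 and 4. Without replicate 3 the adjusted p of LDHA was 0.135, and without replicate 4 it was 0.15. LDHB, the subunit that favours pyruvate formation, was at 19.6, 13.2, 42.7 and 39.7 CPM in treated cultures, against 24.9, 15.5, 69.5 and 48.3 CPM in controls, lower in each pair (log2 change -0.40, SE 0.14, adjusted p = 0.0557). LDHB passed with DESeq2 and the block (adjusted p = 0.0418) and with DESeq2 size factors in edgeR (adjusted p = 0.0479).

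SLC16A3 (MCT4), a lactate exporter, was among the steadiest of these genes, at 273, 257, 227 and 265 CPM in treated cultures and 257, 252, 232 and 250.1 CPM in controls (log2 change 0.04, SE 0.15, adjusted p = 0.888). SLC16A1 (MCT1), a carrier of lactate in both directions, averaged 381 ± 174 CPM in treated and 431 ± 146 CPM in control cultures (SD, n = 4 each, edgeR adjusted p = 0.327). PDK1, the kinase that shuts pyruvate dehydrogenase, was at 30.3, 27.1, 22.6 and 20.2 CPM in treated cultures, against 26.4, 24.8, 39.2 and 29.2 CPM in controls. PDK1 was higher in pairs 1 and 2 and lower in pairs 3 and 4, and the fitted log2 change over all 4 was -0.25 (SE 0.16, adjusted p = 0.319). PDHA1, a subunit of pyruvate dehydrogenase, averaged 81.2 ± 13.3 CPM in treated and 87.5 ± 22.8 CPM in control cultures (SD, n = 4 each, edgeR adjusted p = 0.759).

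In the pentose phosphate pathway H6PD rose and the 6 cytosolic enzymes PGLS, PGD, RPE, RPIA, TKT and TALDO1 did not pass. H6PD (ENSG00000049239, chromosome 1, 9234775 to 9271337, plus strand), which makes NADPH from glucose 6-phosphate inside the endoplasmic reticulum, was at 64.4, 91.4, 34.7 and 38.7 CPM in treated cultures, against 35.7, 49.8, 22.0 and 26.7 CPM in controls. Treated was higher in each pair, and the groups overlapped, since control 1 lay between treated 3 and 4 and control 2 above both. The log2 change was 0.73 (SE 0.14, adjusted p = 0.000969), or 1.66-fold, with 0.87 within replicates 1 and 2 and 0.59 within replicates 3 and 4. Leaving out any 1 replicate number kept the adjusted p of H6PD between 0.00344 and 0.00763.

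PGD, which makes NADPH in the cytosol, was at 66.5, 75.3, 86.5 and 89.9 CPM in treated cultures, against 72.6, 72.2, 90.7 and 97.1 CPM in controls (log2 change -0.06, SE 0.14, adjusted p = 0.816). TKT, transketolase, was at 260.1, 302, 289.9 and 343 CPM in treated cultures, against 258, 278, 197 and 268 CPM in controls. TKT was higher in each pair, by least in pair 1, and did not pass (log2 change 0.26, SE 0.15, adjusted p = 0.276). TALDO1, transaldolase, and RPIA, ribose 5-phosphate isomerase, had log2 changes of -0.09 (SE 0.14, adjusted p = 0.731) and 0.11 (SE 0.14, adjusted p = 0.662). PGLS, which opens 6-phosphogluconolactone, and RPE, ribulose 5-phosphate epimerase, had log2 changes of -0.26 (SE 0.14, adjusted p = 0.227) and -0.16 (SE 0.15, adjusted p = 0.516).

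ARRDC4 was at 95.2, 116, 50.04 and 47.6 CPM in treated cultures, against 87.9, 80.1, 37.1 and 34.6 CPM in controls. It was higher in all 4 pairs and did not pass (log2 change 0.38, SE 0.14, adjusted p = 0.0625). ARRDC4 passed with DESeq2 and the block (adjusted p = 0.0461), under total-count scaling (adjusted p = 0.0293) and without replicate 1 (adjusted p = 0.0478). Its relative TXNIP (ENSG00000265972), which binds thioredoxin and also restrains glucose uptake, rose: it was at 1083, 1045, 968 and 837 CPM in treated cultures, against 870.1, 812, 569 and 479 CPM in controls (log2 change 0.56, SE 0.17, adjusted p = 0.0251). The TXNIP call was lost with the term for the 2 sets (adjusted p = 0.0648) and without replicate 3 (adjusted p = 0.0974) or 4 (adjusted p = 0.151). MLXIPL, which encodes ChREBP, the sister factor of MondoA, rose as well at a low level, 9.52 ± 4.21 CPM in treated and 6.19 ± 2.71 CPM in control cultures (SD, n = 4 each, edgeR adjusted p = 0.0279), and its call was lost without replicate 1 (adjusted p = 0.0986), 2 (adjusted p = 0.0899) or 3 (adjusted p = 0.176).

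**Figure D2:**
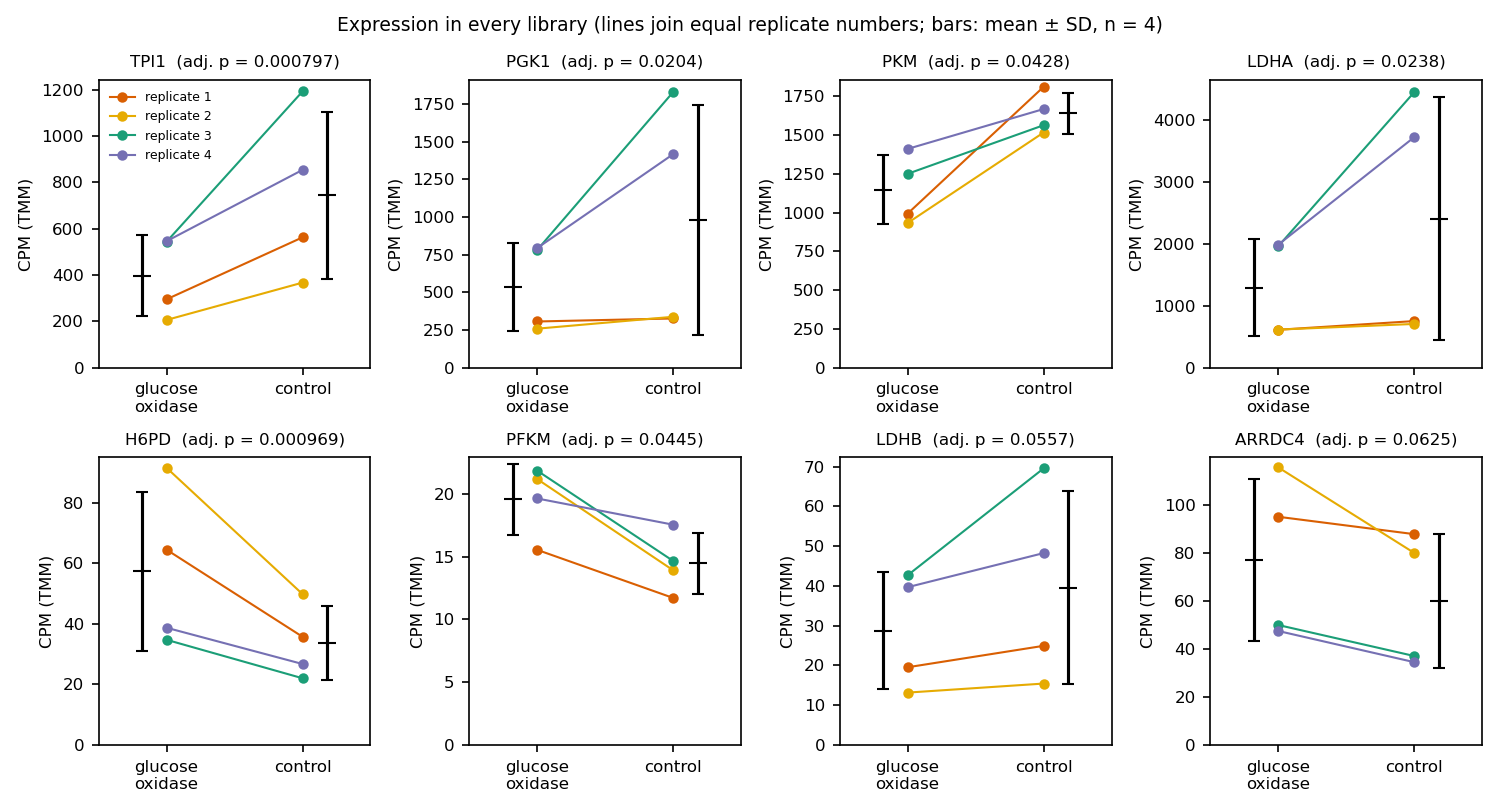
CPM of the 6 called genes and of LDHB and ARRDC4 in every library, with a line joining the treated library (left) to the control library (right) of the same replicate number and bars of the mean ± SD (n = 4). TPI1, PGK1, PKM and LDHA are lower and H6PD and PFKM higher in treated cultures in all 4 pairs, and only PKM has groups that do not overlap.

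Over the 34 genes, 5 were higher in all 4 pairs, as were 16.9% of all genes tested, and these were SLC2A1, PFKM, H6PD, TKT and ARRDC4. Another 7 were lower in all 4 pairs, as were 17.1% of all genes tested: PFKL, TPI1, PGK1, ENO1, PKM, LDHA and LDHB. At 14.7% and 20.6% of the list, the shares lay close to those of genes at large.

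**Figure D3:**
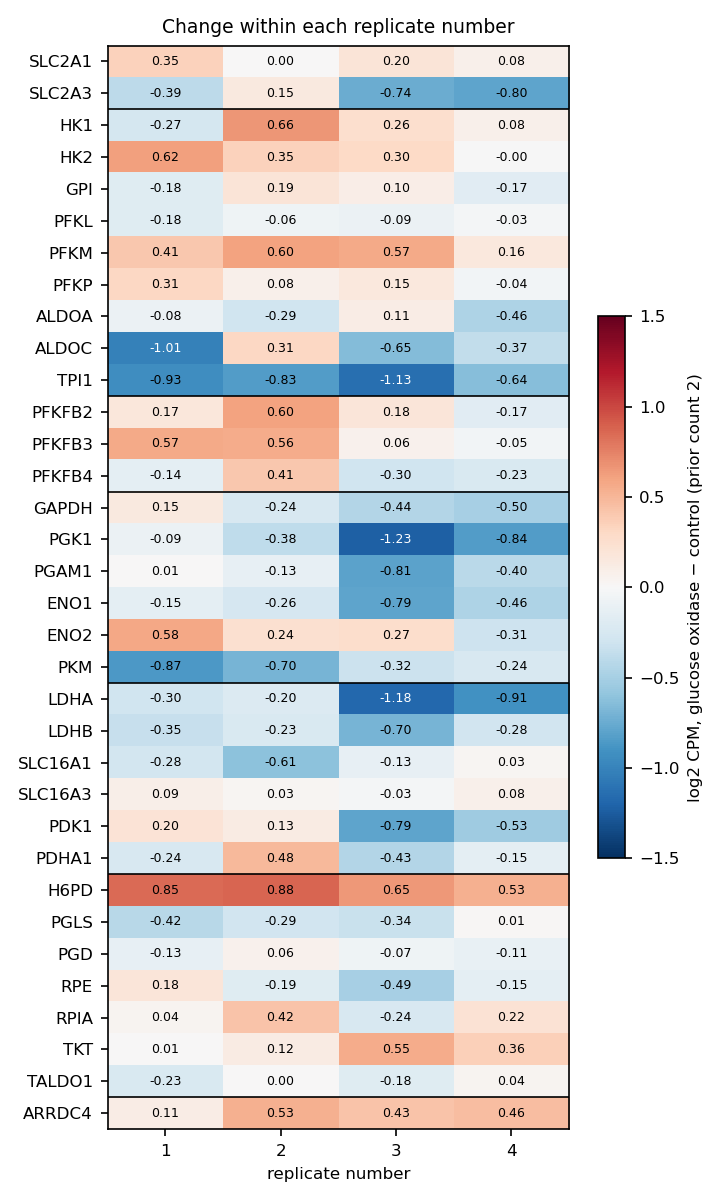
Difference in log2 CPM (prior count 2), treated minus control, within each replicate number (columns) for the 34 genes (rows, ordered by role), with blue for lower and red for higher in treated cultures. TPI1 ranges from -1.13 to -0.64 and H6PD from 0.53 to 0.88 over the 4 columns, while PGK1 and LDHA are darkest in columns 3 and 4.

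The 2 sets of replicates differed more than the groups for several of these genes. Among controls alone, replicates 3 and 4 were at least 2-fold above replicates 1 and 2 for 8 of the 34 genes, LDHA, PGK1, LDHB, ENO1, PGAM1, RPE, TPI1 and GAPDH, where 10.1% of all genes tested were. LDHA was 5.59-fold and PGK1 4.88-fold higher in controls 3 and 4 than in controls 1 and 2, against 3.21-fold and 2.78-fold in the treated cultures. ARRDC4 was the only one at least 2-fold lower in controls 3 and 4, where 13.4% of all genes tested were. All these ratios rest on the TMM scaling, whose factors were 1.07 and 1.17 in controls 1 and 2 and 0.768 and 0.888 in controls 3 and 4. Without these factors each control ratio of replicates 3 and 4 to replicates 1 and 2 would be smaller. The genes past 2-fold were not recounted under total-count scaling. A cell count, a date or a glucose reading for the cultures was not used here, and what sets the 2 pairs of replicates apart was not tested.

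**Figure D4:**
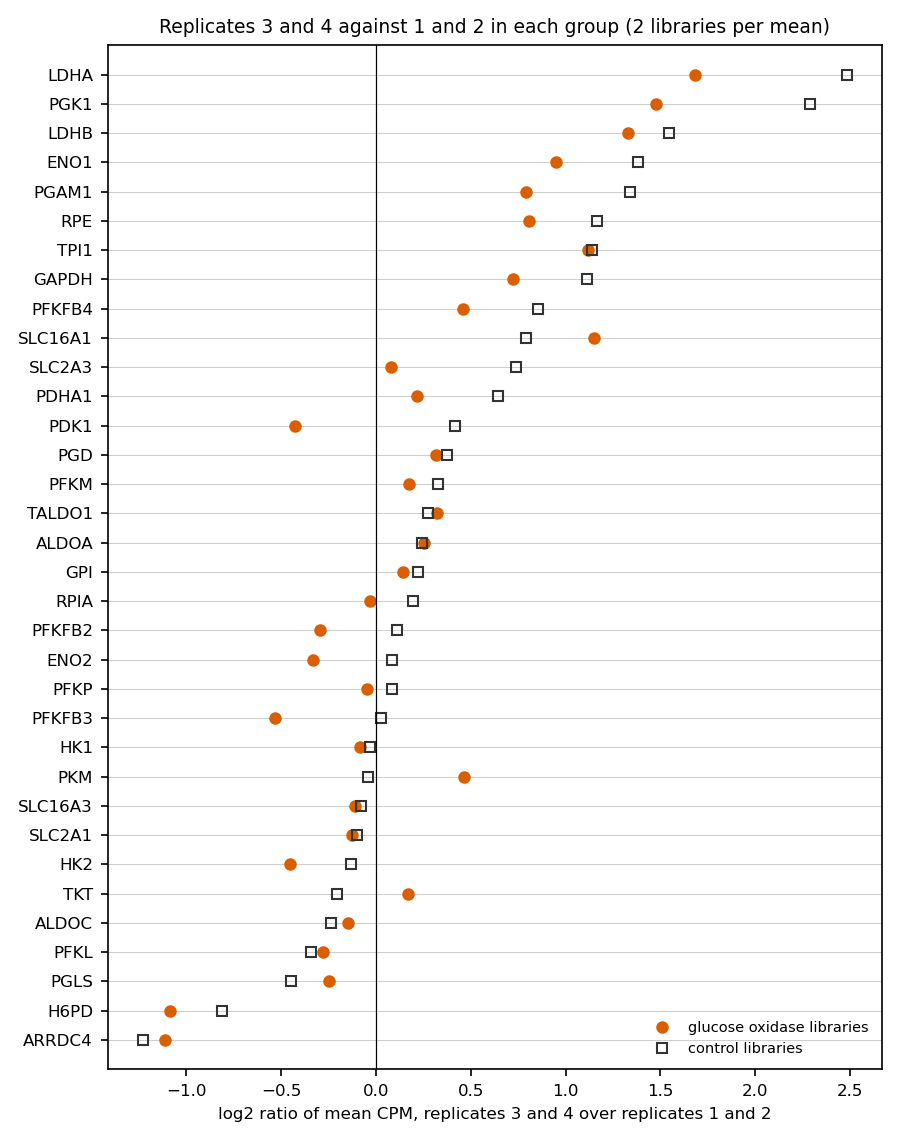
Log2 ratio of the mean CPM of replicates 3 and 4 to that of replicates 1 and 2, for each of the 34 genes, in treated (filled circles) and control cultures (open squares), with 2 libraries in each mean, ordered by the ratio in controls. LDHA and PGK1 stand at the top and ARRDC4 at the bottom, and for LDHA and PGK1 the treated cultures lie left of the controls.

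Whether the change itself differed between the sets was tested as an interaction. None of the 34 passed in edgeR, and 3 had an unadjusted p below 0.05, while 0.23% of all genes passed and 8.4% had an unadjusted p below 0.05. DESeq2 with the same interaction also called 0 of the 34. The smallest adjusted p were those of PDK1 (0.448), PGK1 (0.552) and LDHA (0.573), with differences in log2 change between the sets of -0.84, -0.81 and -0.80, and with 2 pairs in each set changes of this size were not told apart from the spread.

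The isoenzyme make-up of each step is given as shares of summed FPKM, which were not tested. LDHA made up 95.3 ± 1.02% of the 2 lactate dehydrogenase subunits in treated and 95.8 ± 1.70% in control cultures (SD, n = 4 each). LDHB shares 33.4% of its exon bases with another annotated gene on the same strand. Its count may not hold all of its reads, so the LDHA share may be too high. PFKP made up 61.1 ± 1.65% of phosphofructokinase in treated and 58.3 ± 4.47% in control cultures, and PFKM 4.87 ± 0.78% in treated and 3.74 ± 0.59% in control cultures. The PFKL share was 36.2, 35.7, 31.5 and 32.7% in treated cultures 1 to 4 and 44.5, 38.6, 35.7 and 32.9% in controls 1 to 4. In all 4 pairs the treated share was the lower for PFKL, PFKFB4, ENO1 and SLC16A1 and the higher for PFKM, PFKFB3, ENO2 and SLC16A3. Shares of a family of 2 mirror each other, so ENO1 and ENO2 are 1 difference, as are SLC16A1 and SLC16A3. Some gaps were small, such as 32.74% against 32.85% for PFKL in pair 4 and 46.31% against 46.12% for PFKFB3 in pair 2. HK2 made up 45.9 ± 4.74% of the 2 hexokinases in treated and 43.7 ± 6.20% in control cultures. ENO1 made up 99.2 ± 0.48% of the enolases in treated and 99.5 ± 0.35% in control cultures. The share of SLC16A1 among the 2 lactate carriers moved with the sets, at 64.3, 54.7, 80.6 and 75.9% in treated cultures 1 to 4 and 69.9, 65.3, 81.7 and 76.6% in controls 1 to 4.

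**Figure D5:**
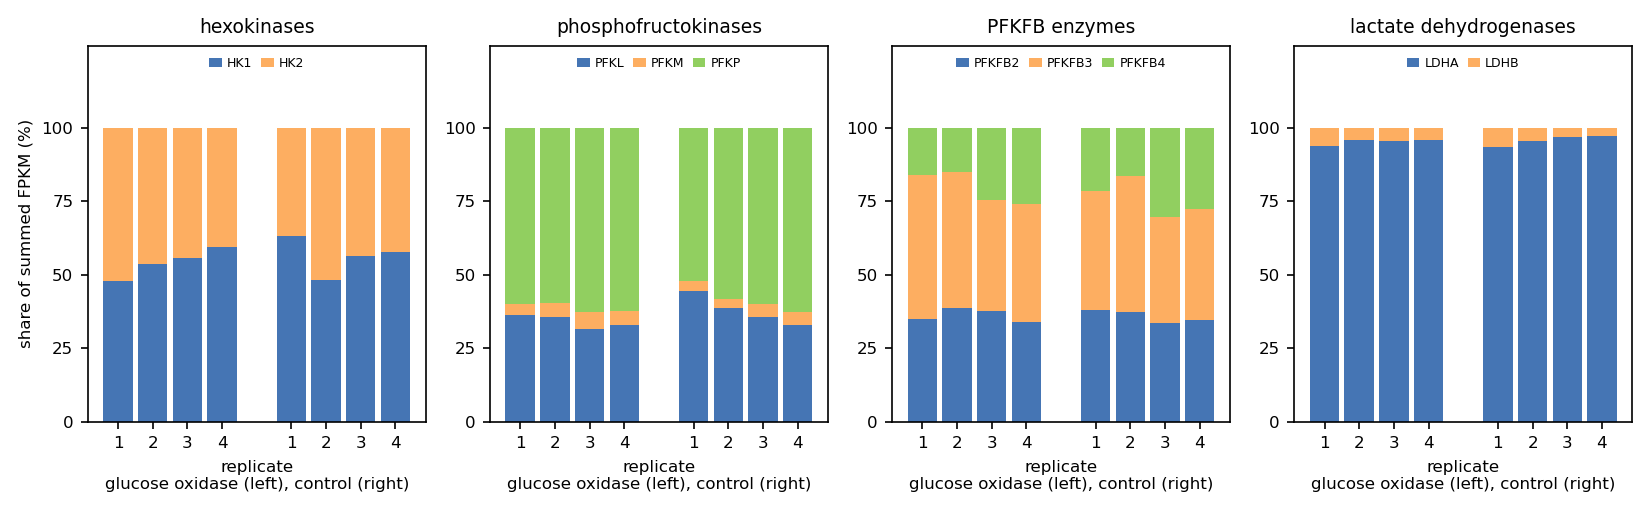
Share of each isoenzyme in the summed FPKM of its family, in percent, in every treated (left) and control (right) library, for hexokinases, phosphofructokinases, PFKFB enzymes and lactate dehydrogenases. LDHA holds over 90% of its family in all 8 libraries, and PFKM is the smallest part of the phosphofructokinases in each.

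Of 95 further genes of glucose metabolism in 7 lists, 68 were tested, 5 rose and 5 fell, 7.35% in each direction, close to the 7.51% and 6.97% of all genes. GFPT2, an entry enzyme of the hexosamine pathway, rose to 6.98 ± 1.07 CPM in treated cultures, against 3.22 ± 0.59 CPM in controls (SD, n = 4 each), with all treated libraries above all controls and a log2 change of 1.12 (SE 0.20, adjusted p = 0.000576). PCK2, the mitochondrial phosphoenolpyruvate carboxykinase, was at 474, 467, 151 and 166 CPM in treated cultures, against 463, 414, 58.5 and 54.6 CPM in controls, so its change (log2 0.79, SE 0.21, adjusted p = 0.011) lay nearly all in replicates 3 and 4, where it was 1.49, against 0.10 in replicates 1 and 2 (adjusted p of the difference 0.0791). Without replicates 3 and 4 in turn the adjusted p of PCK2 was 0.0799 and 0.186, and in DESeq2 with the block it was 0.152. PDPR, a regulator of pyruvate dehydrogenase phosphatase with near-identical copies in the genome, rose with a log2 change of 0.55 (SE 0.14, adjusted p = 0.00985), which its copies make uncertain, and without replicate 3 its adjusted p was 0.109.

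Among the 5 that fell, SLC2A11, a carrier of the glucose and fructose family, was at 16.2, 18.2, 17.5 and 14.3 CPM in treated cultures, against 28.6, 42.4, 26.3 and 25.4 CPM in controls, with all treated libraries below all controls (log2 change -0.86, SE 0.14, adjusted p = 0.0003). MDH1, the cytosolic malate dehydrogenase, which regenerates NAD as LDHA does, had a log2 change of -0.63 (SE 0.16, adjusted p = 0.0109). MPC2, a subunit of the mitochondrial pyruvate carrier, BPGM, which makes 2,3-bisphosphoglycerate, and UGP2, which makes UDP-glucose, had log2 changes of -0.50, -0.50 and -0.46 (SE 0.15 each, adjusted p = 0.0237, 0.0224 and 0.0392). The calls of MDH1, MPC2, BPGM and UGP2 were each lost without at least 1 replicate number: MDH1 without 2 or 3 (adjusted p = 0.0767 and 0.0558), MPC2 without 2 or 3 (0.158 and 0.141), BPGM without 1 or 3 (0.111 and 0.204), and UGP2 without 2, 3 or 4 (0.106, 0.201 and 0.121). With the term for the 2 sets, GFPT2, PCK2 and SLC2A11 were the 3 of the 10 that passed (adjusted p = 0.00526, 0.0478 and 0.00553), and without any block none of the 68 did in edgeR, while DESeq2 called GFPT2 (adjusted p = 0.00164) and SLC2A11 (adjusted p = 0.0136).

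In the authors' deposited table, whose comparison is theirs, all 34 genes are listed and none has an adjusted p-value below 0.05, the smallest being 0.390 for PKM. The direction of the deposited log2 fold change was that of the blocked fit for all 34. In the authors' deposited table the log2 fold change was -0.91 for TPI1, -0.91 for LDHA, -0.89 for PGK1, -0.52 for PKM, 0.77 for H6PD and 0.43 for PFKM.

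Reads can be shared between these genes and copies of them, and how reads with several matches were handled is not known. For 16 of the 34 genes the annotation holds 114 pseudogenes named after them. For 3 genes the summed count of these reached over 1% of the gene's own count in some library, at most 3.50% for SLC2A3, 1.56% for TPI1 and 1.51% for PGAM1. LDHB shares 33.4% of its exon bases on the same strand with AC010197.2, which has 0 counts in all libraries. Reads in the shared bases may have been left uncounted for both genes, which was not tested. Whether strand was used in counting is not known either, and RPE and PDHA1 share 23.8% and 21.3% of their exon bases with genes on the other strand, KANSL1L and MAP3K15.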

How the data were processed

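Total RNA of 8 SV-HUC1 cultures, 4 with glucose oxidase and 4 untreated, was sequenced. Per the submitters' processing notes, the build was GRCh38.p13 and the tools were DESeq2 1.20.0, featureCounts 1.5.0-p3 and HISAT2 2.0.5. The strand setting is not given. The authors deposited raw read counts per gene, FPKM values (fragments per length and depth), a signal that is each count divided by a size factor of its library, and a comparison table with a log2 fold change, a p-value and an adjusted p-value. Identifiers and coordinates of all 58735 genes equal GENCODE 29.

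The tests ran on the counts in R 4.3.3 with edgeR 4.0.16 (TMM, filterByExpr, quasi-likelihood, Benjamini-Hochberg adjusted p below 0.05), with the replicate number as a block. CPM is TMM-normalised and means carry the SD over 4 libraries. DESeq2 1.42.0, limma 3.58.1 and Python 3.11.15 were also used. Same-number libraries correlated at 0.503 to 0.678 across genes, over the minimum of 0.1, but the labels do not say that a number marks 1 experiment, and libraries of different numbers in the same set correlated at 0.443 to 0.652. Libraries of a group all differed by more than counting noise (chi-square over its degrees of freedom 11.0 to 260.7). In the blocked fit the p-values measure the spread of the change between replicate numbers, after the level of each number is taken out. Without the block they measure the spread between the cultures of a group.

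The 34 members, the other lists, the block and the division into replicates 1 and 2 and 3 and 4 were chosen with earlier results of these data known, including that edgeR without the block calls 0 genes. Values per library are given for called members and for 14 members the naming rule lists whatever their test. Of each other list it takes up to 3 called genes in each direction, and TXNIP. Promoter windows are RefSeq's.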

Additional observations from a re-analysis of the deposited data

How the results depend on the processing

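The 34 genes gave 2 higher and 4 lower calls with the block. With no replicate block these were 0 and 0 in edgeR and 0 and 0 in DESeq2, and with a set term (1 and 2 against 3 and 4) they were 1 and 1. DESeq2 size factors, no filter on low counts, and the gene-length correction each gave 1 higher, PFKM being lost. Leaving out 1 replicate number gave 1 to 2 higher and 1 to 4 lower. TPI1 and H6PD passed under all alternatives that keep the block or the set term. The other lists gave 5 higher and 5 lower calls, against 0 and 0 with no replicate block, 1 and 1 with DESeq2 and no block, 2 and 1 with the set term, 2 lower under total counts and 3 lower with the length correction, and 1 to 4 higher and 1 to 5 lower when 1 replicate number was left out. The interaction between sets gave 0 members under all alternatives run. The cause of these shifts was not tested.

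Under total-count scaling all genes had a median log2 change of 0.101, which turned 6 small negative changes positive, none of them called: GPI 0.0965, PFKL 0.0174, PFKFB4 0.0412, PDHA1 0.0232, PGD 0.0489 and TALDO1 0.0186. GPI was 0.012 with no filter, SLC16A3 -0.0800 and PGD 0.00045 with the length correction. When 1 replicate number was left out, GPI spanned -0.0678 to 0.0566, PFKFB4 -0.212 to 0.0074 and PDHA1 -0.262 to 0.0299. Of the values for single genes, 424 kept direction and side of the threshold, 81 lost a call, 8 gained one and 13 changed sign.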
